A study of Mus musculus with 20 samples.

Results

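Livers of mice given ethinylestradiol (EE2) for 25 days were compared with livers of mice given its vehicle, sunflower oil, for the same time. The comparison used 10 of the 20 Affymetrix arrays of the study, 5 with EE2 and 5 with oil, and covered every probe set that could be mapped from its Entrez number to a gene symbol, 16464 genes in all. Genes of bile acid handling, of the immune and acute phase response and of the male and female liver pattern were set aside, and the account covers the other functions of the liver. The mice were C57BL/6 males of 21 to 27 g and an age of 10 weeks. By oral gavage they had received EE2 (3.7 mg/kg) in sunflower oil, or the antipsychotic chlorpromazine (CPZ, 10 mg/kg) in PBS, or 1 of these vehicles alone. All 4 groups had 25 days of treatment and 5 arrays, and no group carries a genetic alteration in the labels. RNA was taken from the middle of the left lateral lobe. Samples are numbered in the labels, and nothing there says that a number stands for 1 mouse, so p-values cover the spread between samples alone, which may in part be technical. Arrays are named by sample number, and where values of all arrays are listed they stand in the order 9, 13, 15, 17 and 18 for EE2 and 2, 5, 6, 8 and 16 for oil.

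EE2 is a synthetic estrogen that resists breakdown in the liver, is used in oral contraceptives and is a standard agent to bring about cholestasis, a failure of bile flow, in rodents. Estrogens act through nuclear receptors that bind paired core motifs in DNA and through other transcription factors, and the male rodent liver also responds to them indirectly, through pituitary hormones. The hepatocyte, the main cell of the liver, makes most plasma proteins, stores glycogen, makes and oxidises fat, synthesises heme, transports metals and breaks down drugs, and genes of each of these tasks are described below.

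Levels are deposited log2 values from RMA, a method that corrects background, normalizes arrays and summarises the probes of a gene. Group values are means ± SD over 5 arrays, and changes are differences of log2 means, EE2 minus oil, given with limma's standard error (SE). "Rose" and "fell" are used only of genes with a limma p below 0.05 after Benjamini-Hochberg adjustment over all 16464 genes. Their lower quartile was 3.06 with EE2 and 3.16 with oil, where signals approach background, so every change that starts or ends at or below these levels is only a lower bound, which is said beside the largest. Hepatocyte markers were bright in both groups: albumin (Alb) stood at 14.15 ± 0.01 with EE2 and 14.16 ± 0.03 with oil, and transthyretin (Ttr) at 13.65 ± 0.05 with EE2 and 13.77 ± 0.03 with oil. Liver is a mixture of cells, so fewer cells of a type and less RNA per cell cannot be told apart here.

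With EE2 3166 genes (19.2%) rose and 4394 (26.7%) fell, together 45.9% of those tested, and the median difference of all genes was -0.07. These are the shares against which every count below is to be read. On 31.8% of genes the EE2 and oil arrays did not overlap, with EE2 above on 14.6% and below on 17.2%. Most changes were small: 616 genes rose and 202 fell at least 2-fold, and 157 rose and 46 fell at least 4-fold. The share of genes called grew with the level in oil livers, 32.6% of genes under 4, 51.2% between 4 and 6, 56.4% between 6 and 8, 59.9% between 8 and 10 and 70.4% over 10. In these bins 726 genes under 4 rose and 1664 fell, 925 between 4 and 6 rose and 753 fell, 844 between 6 and 8 rose and 905 fell, 475 between 8 and 10 rose and 642 fell, and 196 over 10 rose and 430 fell. Rises outnumbered falls only between 4 and 6. The array medians were 4.59 to 4.61 with EE2 and at most 4.48 on the other 15 arrays. Centring each array on its median moved the median difference to -0.23 and the calls to 2062 higher and 9784 lower. Counts with centred arrays therefore follow each list count in brackets, with those after quantile normalization where the balance or a count moved by over 1.5 times there, and a list whose balance changes there has no settled direction.

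**Figure D1:**
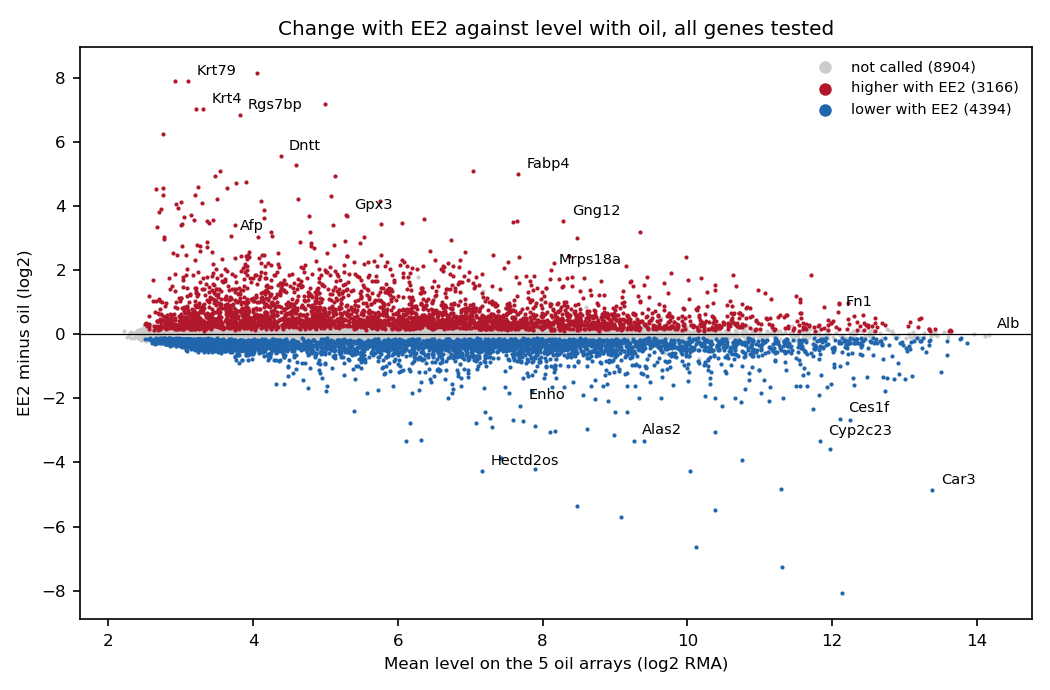
Difference between EE2 and oil livers (vertical axis, log2, EE2 minus oil) against the mean level on the 5 oil arrays (horizontal axis, log2 RMA), with 1 point for each of 16464 genes and the colour giving the call. Of the called genes 3166 lie above 0 and 4394 below it. Most rises of 4 and more start from levels under 6, that of Fabp4 from a higher one, while Car3, Cyp2c23 and Ces1f fell from high ones.

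Large rises outside the lists set aside included genes known from lining epithelia. Krt79 (Entrez gene 223917), a keratin of hair follicle and gland ducts, had 11.38, 10.96, 10.59, 11.01 and 11.15 on the EE2 arrays, against 2.88, 3.31, 3.23, 3.22 and 2.87 on the oil arrays. Krt4 (Entrez gene 16682), a keratin of the oesophagus and other moist stratified epithelia, had 10.19, 10.27, 10.22, 10.50 and 10.54 with EE2, against 3.33, 3.32, 3.36, 3.36 and 3.20 with oil. Both genes stood near the lower quartile in every oil liver and far above it in every EE2 liver, so the differences of 7.91 (SE 0.13, adjusted p = 2.04e-20) and 7.03 (SE 0.07, adjusted p = 1.48e-24) are lower bounds. Ly6d, a membrane-anchored protein of keratinocytes and lymphoid precursors, rose by 4.75 (SE 0.19), with 9.01, 9.01, 8.99, 8.23 and 8.02 on EE2 arrays and 4.11, 3.97, 4.09, 3.93 and 3.43 on oil arrays. Of the 42 measured genes of the stratified epithelium list 7 rose and 6 fell (5 and 25 with centred arrays, 8 and 2 after quantile normalization), and the cornified envelope gene Ivl stood at 2.85 ± 0.06 with EE2 and 3.09 ± 0.10 with oil. Dsc2, a desmosomal cadherin, rose by 1.32 (SE 0.11), while Perp, another desmosomal protein, differed by 0.09 (SE 0.09, adjusted p = 0.401).

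Dntt and Trex2, which act on DNA, were among the large rises. Dntt, the terminal transferase that adds nucleotides without a template in developing lymphocytes, had 10.03, 9.92, 9.87, 9.91 and 9.96 with EE2, against 4.48, 4.52, 3.88, 4.30 and 4.72 with oil, a difference of 5.56 (SE 0.16, adjusted p = 2.22e-16). The 5 EE2 values of Dntt lay within a narrow range and every oil value lay far below. Trex2, a 3′ exonuclease known from keratinocytes, rose by 4.36 (SE 0.14). It stood below the lower quartile with oil, at 2.76 ± 0.12, so this rise is a lower bound. Among markers that share cells with Dntt in other tissues, the T-cell genes Cd3e and Cd8a differed by -0.01 (SE 0.10, adjusted p = 0.945) and by -0.01 (SE 0.05, adjusted p = 0.89), while Ms4a1, a marker of B cells, rose by 1.99 (SE 0.13). Of all 15 measured lymphocyte markers 8 rose and 1 fell (8 and 4 with centred arrays, 8 and 0 after quantile normalization). The part of such cells in the Dntt rise was not tested.

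The large rises also included Rgs7bp, Rgs7 and Gng12, of G-protein signalling. Rgs7bp, which anchors the RGS7 protein at the cell membrane, had 10.82, 10.58, 10.77, 10.28 and 10.87 on EE2 arrays, against 3.83, 3.71, 3.93, 3.74 and 3.88 on oil arrays. It rose by 6.85 (SE 0.09), adjusted p = 1.49e-22, and its partner Rgs7, which speeds the turn-off of inhibitory G proteins, rose by 3.71 (SE 0.12) from 3.15 ± 0.23 with oil, a lower bound. Gng12, a G-protein gamma subunit, had 12.03, 11.72, 11.83, 11.66 and 11.86 with EE2, against 8.20, 8.34, 8.38, 8.27 and 8.24 with oil. That is a difference of 3.53 (SE 0.07), 11.6-fold, in a gene well above the lower quartile in both groups. Of 48 feedback regulators of MAP kinases and G proteins 15 rose and 15 fell (11 and 22 with centred arrays, 13 and 11 after quantile normalization). Rgs2 and Rgs19 rose by 1.89 (SE 0.13) and 1.74 (SE 0.08), the alpha subunit gene Gna12 fell by 1.11 (SE 0.16), and the MAP kinase phosphatases Dusp1 and Dusp6 differed by 0.08 (SE 0.42, adjusted p = 0.886) and by -0.08 (SE 0.24, adjusted p = 0.8).

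Lipid genes were among the large rises. Fabp4, a fatty acid carrier of adipocytes and macrophages, had 12.48, 12.59, 12.61, 12.85 and 12.80 with EE2, against 7.81, 7.62, 7.66, 7.61 and 7.61 with oil. It rose by 5.00 (SE 0.10), which is 32.1-fold, adjusted p = 3.03e-19, and the groups lay far apart. The defining adipocyte genes lay below the lower quartile in both groups: Adipoq stood at 2.96 ± 0.08 with EE2 and 3.11 ± 0.21 with oil, Lep at 2.64 ± 0.07 with EE2 and 2.87 ± 0.15 with oil, and of 7 measured adipocyte markers 2 rose, Fabp4 and Cidea, and 4 fell (2 and 4 with centred arrays). Of 19 macrophage markers 16 rose and 0 fell (15 and 1 with centred arrays), and their mean level per array was 7.39 to 7.94 with EE2 and 6.39 to 6.64 with oil. Their part in the Fabp4 rise was not tested. Osbpl3, an oxysterol-binding protein, rose by 5.10 (SE 0.10), with 8.75, 8.63, 8.67, 8.41 and 8.78 on EE2 arrays and 3.51, 3.59, 3.24, 3.55 and 3.85 on oil arrays. Scd3, a stearoyl-CoA desaturase found mainly in skin glands, rose by 4.93 (SE 0.11) from 3.48 ± 0.09, while Scd1, the main liver form, fell by 1.91 (SE 0.32). Scd1 had 8.59, 10.72, 9.76, 11.24 and 9.21 on EE2 arrays, against 11.84, 12.03, 11.65, 11.55 and 11.99 on oil arrays, so EE2 arrays 9 and 18 were lowest and array 17 came close to the oil arrays. Gpat3, which starts the build-up of triglycerides, rose by 3.69 (SE 0.23), and the acyl-CoA thioesterase Acot1 fell by 2.62 (SE 0.28).

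The remaining large rises came from varied functions. Ovgp1, a glycoprotein that the oviduct secretes under estrogen, had 8.94, 8.34, 7.69, 8.25 and 9.16 with EE2, against 3.69, 3.71, 3.53, 4.02 and 3.89 with oil, and rose by 4.71 (SE 0.19). Corin, the membrane protease that activates atrial natriuretic peptide in the heart, had 7.19, 7.04, 6.68, 6.78 and 7.33 with EE2, against 2.90, 3.03, 2.86, 3.11 and 2.75 with oil. It rose by 4.07 (SE 0.10), a lower bound, since all oil values lay in the lowest quartile. Adam19, a membrane metalloprotease, rose by 4.58 (SE 0.08). Of genes of contractile and ciliary structures, Lmod3, which seeds actin filaments in muscle, rose by 4.56 (SE 0.14), Rsph4a, part of the radial spoke of motile cilia, rose by 4.53 (SE 0.13), and Tppp3, which binds microtubules, rose by 4.10 (SE 0.29). Tinag, a basement membrane protein of kidney tubules, rose by 3.42 (SE 0.23), Chst8, which sulfates the sugars of pituitary hormones, rose by 3.95 (SE 0.11), and Slc25a36, a mitochondrial nucleotide carrier, rose by 3.44 (SE 0.28). Apart from Ovgp1 and Adam19, these genes stood between 2.65 and 3.30 with oil, at or close to the level where signals approach background. Each of these rises is thus a lower bound. The EE2 and oil arrays of all these genes were apart.

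**Figure D2:**
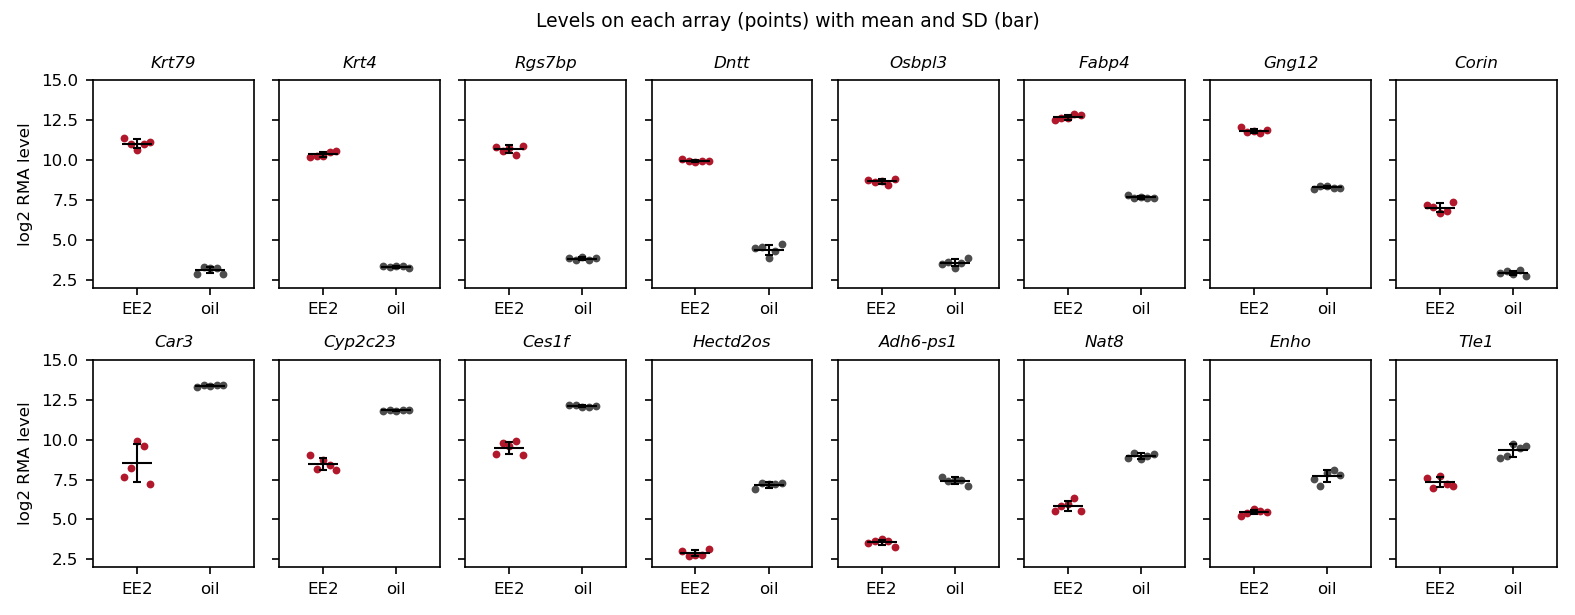
Level of 16 genes on each array (vertical axis, log2 RMA. Points are arrays, bars the mean and SD), EE2 on the left and oil on the right of each panel. The top row holds genes that rose and the bottom row genes that fell. The groups are apart in every panel, which the rule for named genes required of the largest changes and of list changes. Car3 spreads from 7.20 to 9.90 over the EE2 arrays.

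Of the genes that fell, Car3 had one of the widest differences. Car3 (Entrez gene 12350), a cytosolic carbonic anhydrase of liver, muscle and fat, had 7.65, 8.22, 9.90, 9.61 and 7.20 with EE2, against 13.32, 13.40, 13.34, 13.42 and 13.45 with oil. It fell by 4.87 (SE 0.34), 29.2-fold, adjusted p = 2.74e-10, and EE2 arrays 15 and 17 kept more of it than arrays 9 and 18. Cyp2c23, a P450 known in rat kidney for making epoxides of arachidonic acid, had 9.02, 8.16, 8.70, 8.43 and 8.12 with EE2, against 11.77, 11.87, 11.78, 11.88 and 11.84 with oil, and fell by 3.34 (SE 0.12). Some enzymes that split or conjugate foreign compounds were also among the falls: the carboxylesterases Ces1e and Ces1f fell 8.35-fold and 6.18-fold, Nat8, an N-acetyltransferase of cysteine conjugates, fell by 3.14 (SE 0.15), its relative Nat8f1 fell by 1.63 (SE 0.07), and the glutathione transferases Gsta4 and Gstt1 fell 3.97-fold and 2.92-fold. Ces1f had 9.12, 9.77, 9.58, 9.90 and 9.01 on EE2 arrays, against 12.14, 12.16, 12.07, 12.07 and 12.08 on oil arrays, and the spread was wider with EE2 than with oil.

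Regulators, matrix genes and transcripts named as noncoding were also among the large falls. Hectd2os, an opposite-strand transcript of Hectd2, had 3.05, 2.70, 2.77, 2.79 and 3.13 with EE2, against 6.88, 7.29, 7.20, 7.19 and 7.27 with oil. It fell by 4.28 (SE 0.14), adjusted p = 1.48e-15, down to the lower quartile, so the fall is a lower bound. Whether its probes were read by strand is not given in the sources used here. Adh6-ps1, named as a pseudogene of an alcohol dehydrogenase and so open to signal from related genes, fell by 3.86 (SE 0.14). Olig1, a transcription factor known from oligodendrocytes, fell by 3.32 (SE 0.26) to 2.79 ± 0.28, likewise a lower bound, and Tle1, a Groucho corepressor, fell by 2.00 (SE 0.15). Tle1 had 7.59, 6.97, 7.71, 7.24 and 7.11 with EE2, against 8.87, 8.95, 9.70, 9.49 and 9.61 with oil. The matrix genes Cnmd (chondromodulin), Col27a1 and Col5a3 fell 8.23-fold, 7.39-fold and 3.95-fold, and Nrep, a small neuronal protein, fell by 2.96 (SE 0.25). Spp2, a phosphoprotein that liver secretes and bone takes up, fell by 2.09 (SE 0.10), and the steroid-handling genes Hsd17b6 and Hsd3b3 fell 4.00-fold and 4.68-fold.

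Promoters of the genes with large changes were searched for the estrogen response element, since the agent is an estrogen. RefSeq windows on build GRCm38.p6 ran from 250 bases before to 50 after a transcription start. They were kept for 40 of the 60 largest changes and found for 13162 of all tested genes. The count of 40 leaves out every window on the chromosome that carries Nrep, while the 13162 include that chromosome. The 40 is thus a count of genes kept, and more of the 60 may have a window. The element, GGTCA and TGACC with any 3 bases between, occurred on either strand in 4 of the 13162 genes (0.0304%), in 0 of 118 that rose and 0 of 28 that fell at least 4-fold. Its core motif AGGTCA occurred on either strand in 16.2% of all genes, in 24 of the 118 (20.3%) and in 7 of the 28 (25%). A match is a description of these letters and not a site, and no match says only that they are not in this window. Of the 40 genes kept among the largest changes, 6 had AGGTCA in a window, beside the 16.2% of all genes. Shown are the windows of the epithelial keratin with the widest rise, of the oviduct gene and of the heme gene described next, which fell. The oviduct and heme genes are among the 6, so the windows shown do not reflect how often the motif occurs. Capitals mark AGGTCA.
Krt79, chr15:101940275-101940574, minus strand: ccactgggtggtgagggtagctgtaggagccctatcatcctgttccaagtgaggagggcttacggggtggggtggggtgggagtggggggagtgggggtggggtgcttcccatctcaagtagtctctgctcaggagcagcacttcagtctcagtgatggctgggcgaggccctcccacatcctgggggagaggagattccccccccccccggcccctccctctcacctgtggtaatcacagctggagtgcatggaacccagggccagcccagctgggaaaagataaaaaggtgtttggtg
Ovgp1, chr3:105973552-105973851, plus strand: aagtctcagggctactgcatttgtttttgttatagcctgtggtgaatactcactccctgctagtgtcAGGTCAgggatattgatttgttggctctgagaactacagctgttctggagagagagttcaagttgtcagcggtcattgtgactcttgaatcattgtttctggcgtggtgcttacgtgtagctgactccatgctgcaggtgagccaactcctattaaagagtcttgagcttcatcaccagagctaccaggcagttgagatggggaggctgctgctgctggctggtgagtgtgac
Alas2, chrX:150547167-150547466, plus strand: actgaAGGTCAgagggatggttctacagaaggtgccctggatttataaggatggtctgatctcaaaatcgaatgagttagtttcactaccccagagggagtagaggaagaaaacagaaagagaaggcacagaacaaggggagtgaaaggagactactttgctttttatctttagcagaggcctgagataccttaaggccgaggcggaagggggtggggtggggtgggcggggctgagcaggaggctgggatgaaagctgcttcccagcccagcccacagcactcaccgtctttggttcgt
The core motif begins 183 bases before the start of Ovgp1 and 245 bases before the start of Alas2, and the Krt79 window holds none. Another 12 motifs were searched on both strands. HNF4, as CAAAGTCCA, was in 72 of all genes, 1 of the 118 and 3 of the 28. STAT5, as TTCNNNGAA, was in 8.74% of all genes, 10.2% of the 118 and 0 of the 28. The TATA motif, as TATAAA, was in 11.5% of all genes, 18.6% of the 118 and 14.3% of the 28. The others were direct repeats of AGGTCA spaced by 1 and by 4 bases, the E-box as CACGTG, the motif of GATA factors as AGATAA, the cyclic AMP element as TGACGTCA, the antioxidant element as TGACNNNGC, HNF1 as GTTAAT followed after 1 base by ATTAAC, the CCAAT box and the sterol element as TCACNCCAC. The direct repeats contain AGGTCA, and the estrogen, cyclic AMP and antioxidant elements can overlap.

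The first step of heme synthesis went in opposite directions in its 2 genes. Alas2, the form known from red cell precursors, had 5.88, 6.13, 6.56, 5.25 and 5.88 with EE2, against 9.16, 9.19, 9.12, 9.50 and 9.34 with oil. It fell by 3.32 (SE 0.16), 10.0-fold, adjusted p = 9.82e-13. Alas1, the form of the liver, had 12.51, 12.66, 12.37, 12.59 and 12.73 with EE2, against 10.56, 10.84, 11.92, 12.13 and 12.34 with oil, and rose by 1.01 (SE 0.35). The EE2 arrays of Alas1 lay close together and oil arrays 2 and 5 lay lowest. The call rested on those 2 arrays, since the Alas1 rise was 0.77 (adjusted p = 0.0768) without oil array 2 and 0.83 (adjusted p = 0.0682) without oil array 5. Of 18 genes of heme synthesis and breakdown 7 rose and 9 fell (6 and 10 with centred arrays): the heme exporter Flvcr1 rose by 1.23 (SE 0.10), the heme-degrading Hmox1 rose by 0.66 (SE 0.15) and Cpox, a late step of synthesis, fell by 0.63 (SE 0.10). Of 5 measured erythroid markers 0 rose and 2 fell (0 and 3 with centred arrays, 0 and 1 after quantile normalization), Alas2 and Epb42, with Epb42 not called without oil array 6 or EE2 array 9, and Slc4a1, Tfrc and Epb42 stood near the lower quartile in both groups, at 3.03 ± 0.07, 3.19 ± 0.03 and 2.57 ± 0.06 with EE2 and at 2.99 ± 0.07, 3.15 ± 0.10 and 2.73 ± 0.09 with oil. Their part in the Alas2 fall was not tested.

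The carbonic anhydrases, which interconvert carbon dioxide and bicarbonate, diverged by gene. Car5a, the mitochondrial form that feeds urea and glucose synthesis, had 6.65, 5.90, 6.83, 5.70 and 5.31 with EE2, against 9.34, 9.27, 9.41, 9.47 and 9.48 with oil, and fell by 3.32 (SE 0.19). Car1, typical of red cells, had 4.31, 4.10, 4.23, 4.48 and 4.43 with EE2, against 6.83, 6.82, 7.26, 7.25 and 7.25 with oil, and fell by 2.77 (SE 0.13). Car2, a cytosolic form, moved the other way, with 8.31, 7.90, 7.39, 7.86 and 8.18 on EE2 arrays and 6.20, 6.34, 6.14, 5.85 and 6.14 on oil arrays, and rose by 1.79 (SE 0.13). Including Car3 these 4 genes had no overlap between groups. The rule for named genes required this of list changes, and it held on 31.8% of all genes. Of all 28 genes of the acid-base list 7 rose and 9 fell (4 and 14 with centred arrays, 7 and 7 after quantile normalization), with a median difference of -0.01. The bicarbonate transporter genes Slc4a4 and Slc4a2 rose by 0.93 (SE 0.11) and 0.45 (SE 0.11), and the proton pump subunit Atp6v1h differed by 0.09 (SE 0.10, adjusted p = 0.447).

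Mitochondrial and peroxisomal lists held more falls than rises, by small amounts. Of the TCA cycle list, 3 of 33 measured members rose and 15 fell (2 and 23 with centred arrays), 5 rising without oil array 2, with a median of -0.16. Idh3a, a subunit of the mitochondrial isocitrate dehydrogenase, fell by 0.71 (SE 0.06) and the aconitase Aco1 fell by 0.49 (SE 0.05), while Pdp1, a phosphatase that activates pyruvate dehydrogenase, and the malic enzyme Me2 rose by 1.01 (SE 0.09) and 1.13 (SE 0.10) from low levels. Citrate synthase (Cs) differed by 0.03 (SE 0.07, adjusted p = 0.727). Of the mitochondrial ribosomal proteins 10 of 63 measured members rose and 31 fell (3 and 47 with centred arrays), with a median of -0.15. Mrpl47 fell by 0.61 (SE 0.07) and Mrpl38 fell by 0.46 (SE 0.07), but Mrps18a stood out with 10.19, 10.00, 9.86, 10.09 and 10.38 on EE2 arrays, against 8.08, 8.21, 8.12, 8.03 and 8.12 on oil arrays, and rose by 1.99 (SE 0.08). Among mitochondrial import, dynamics and carrier genes 6 of 39 measured members rose and 14 fell (5 and 26 with centred arrays). The aspartate-glutamate carrier Slc25a13 fell by 1.12 (SE 0.08), the fusion protein Opa1 fell by 0.71 (SE 0.06) and the adenine nucleotide carrier Slc25a4 rose by 0.78 (SE 0.07). Of the peroxisome biogenesis list 1 of 19 measured members rose and 10 fell (1 and 16 with centred arrays, 2 and 13 after quantile normalization), 2 rising without oil array 5 or EE2 array 17. The fatty acid transporter Abcd3 fell by 0.64 (SE 0.05) and Pxmp2 fell by 0.51 (SE 0.09), and the single rise was in Abcd2, by 1.64 (SE 0.33), which is also in the list set aside for its sex pattern. Of NAD, coenzyme A and B vitamin genes 7 of 42 measured members rose and 19 fell (3 and 27 with centred arrays), with a median of -0.16. The aldehyde oxidases Aox3 and Aox1 fell 2.97-fold and 1.87-fold and the pyridoxal kinase Pdxk fell by 1.07 (SE 0.08), while Hlcs and Btd, which attach and recycle biotin, rose by 0.88 (SE 0.12) and 0.63 (SE 0.06).

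Genes of the pentose phosphate path and of fructose use were mostly higher. Of this list 12 of 20 measured members rose and 3 fell (8 and 6 with centred arrays), with a median of 0.24. Pgd, which makes NADPH, had 9.63, 9.95, 9.78, 10.27 and 9.54 with EE2, against 8.05, 8.12, 7.98, 8.06 and 8.30 with oil, and rose by 1.73 (SE 0.11). Tkfc, the triokinase of fructose breakdown, and Tkt, the transketolase, rose by 1.08 (SE 0.13) and 0.70 (SE 0.07), and Galt, of galactose use, fell by 0.38 (SE 0.06). Glycogen genes went both ways: 7 of 25 measured members rose and 7 fell (5 and 14 with centred arrays, 7 and 5 after quantile normalization). The brain-type phosphorylase Pygb rose by 1.53 (SE 0.10) while the liver form Pygl differed by 0.04 (SE 0.08, adjusted p = 0.681), and the branching enzyme Gbe1 rose by 0.80 (SE 0.11). The synthase of liver, Gys2, fell by 0.45 (SE 0.06), and Ppp1r3c, a subunit that directs a phosphatase to glycogen, fell by 1.74 (SE 0.18). Lpin1, a phosphatidate phosphatase and coactivator in the insulin list, rose by 1.39 (SE 0.24), and Enho, which encodes the secreted peptide adropin, had 5.23, 5.43, 5.64, 5.55 and 5.47 with EE2, against 7.55, 7.13, 7.90, 8.11 and 7.79 with oil, and fell by 2.23 (SE 0.15). Of the insulin list as a whole 13 of 50 measured members rose and 17 fell (8 and 25 with centred arrays).

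Serine, one-carbon and nucleotide genes were split within their paths. Phgdh, the first enzyme of serine synthesis, had 6.19, 6.85, 6.62, 6.27 and 6.58 with EE2, against 7.71, 7.72, 7.97, 7.81 and 7.79 with oil, and fell by 1.30 (SE 0.12). Psat1, the next enzyme, had 3.91, 4.11, 4.07, 4.18 and 4.83 with EE2, against 3.23, 3.48, 3.14, 3.29 and 3.09 with oil, and rose by 0.97 (SE 0.12). The 2 genes thus went in opposite directions. The groups did not overlap for either gene, which the rule for named genes required. Of the one-carbon, folate and methionine list 10 of 30 measured members rose and 10 fell (7 and 15 with centred arrays, 10 and 9 after quantile normalization). Mthfd1l, of the mitochondrial folate path, rose by 1.20 (SE 0.16), Shmt2 fell by 0.60 (SE 0.08), Gamt, the last step of creatine synthesis, fell by 0.91 (SE 0.10), and Mthfd1 differed by 0.02 (SE 0.06, adjusted p = 0.853). Of the purine list 11 of 32 measured members rose and 8 fell (6 and 15 with centred arrays) and of the pyrimidine list 6 of 20 measured members rose and 8 fell (4 and 10 with centred arrays). Nt5e, the ectonucleotidase CD73, rose by 1.29 (SE 0.22), Ampd3, an AMP deaminase, rose by 1.17 (SE 0.10) and Ctps, which makes CTP, rose by 1.07 (SE 0.15), while the thymidine kinase Tk1 fell by 0.85 (SE 0.09). Odc1, the rate-limiting enzyme of polyamine synthesis, fell by 0.72 (SE 0.12), and both arginases, Arg1 of the urea cycle and Arg2 of mitochondria, rose by 0.51 (SE 0.04) and 0.79 (SE 0.06), that of Arg2 a lower bound. Of sphingolipid genes 15 of 40 measured members rose and 11 fell (13 and 17 with centred arrays). Cerk, the ceramide kinase, rose by 1.66 (SE 0.13), Smpd3, a neutral sphingomyelinase, rose by 1.05 (SE 0.08), and S1pr1, a receptor for sphingosine 1-phosphate, fell by 1.41 (SE 0.09).

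**Figure D3:**
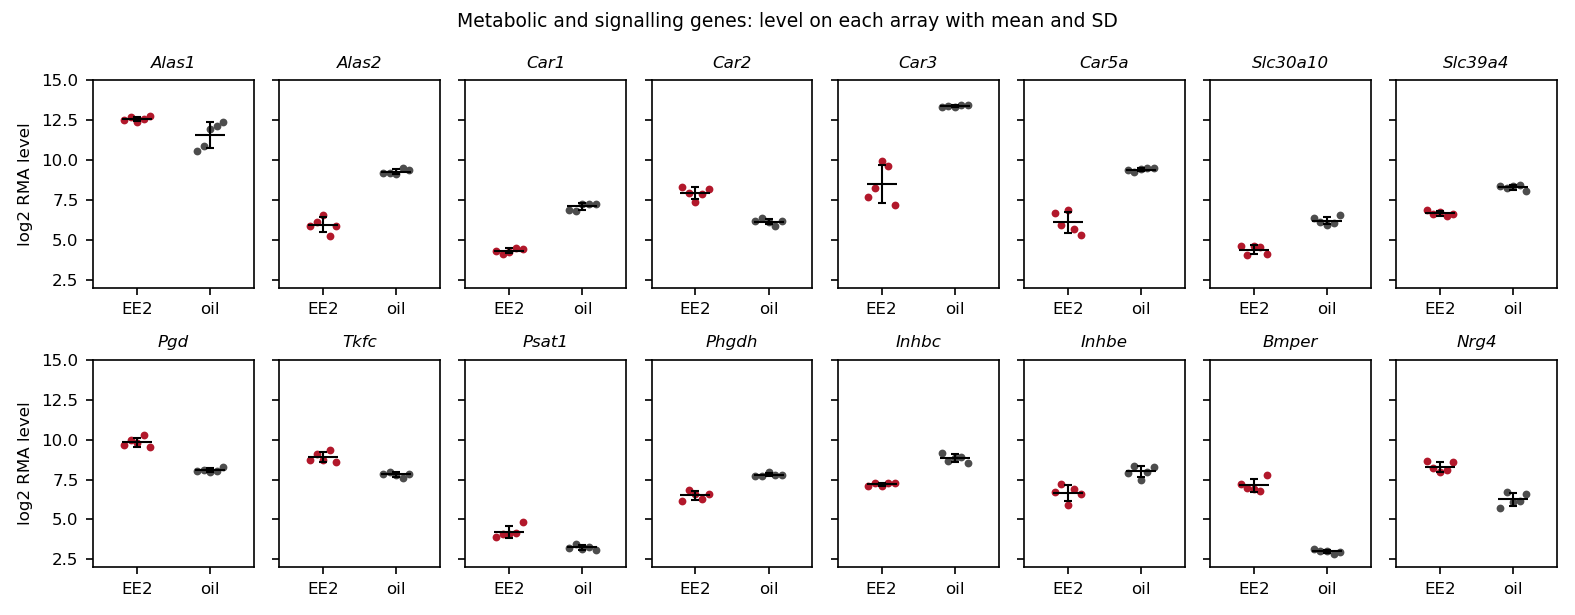
Level of 16 metabolic and signalling genes on each array (vertical axis, log2 RMA. Points are arrays, bars the mean and SD), EE2 on the left and oil on the right of each panel. Alas1 lies above 2 clearly lower oil arrays and Alas2 is lower with EE2, Psat1 is higher and Phgdh lower, and Car2 higher while Car1, Car3 and Car5a are lower.

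Lists of protein synthesis and secretion held more rises than falls, though for several of them this did not outlast centring. Only 19 of 78 listed cytosolic ribosomal protein genes had a probe set. Of these 15 rose and 0 fell (9 and 2 with centred arrays), with a median of 0.28. Their mean level per array was 8.61 to 8.75 with EE2 and 8.34 to 8.44 with oil. Rps3 rose by 0.92 (SE 0.07) and Rpl31 rose by 0.90 (SE 0.09). For ER translocation and oligosaccharyl transfer 16 of 27 measured members rose and 2 fell (10 and 8 with centred arrays), with Srp19 of the signal recognition particle, Stt3a, a catalytic subunit of the transferase, and Ssr3 rising by 0.64, 0.52 and 0.50 (SE 0.06, 0.05 and 0.05). For the COPI and COPII coats of vesicles between ER and Golgi 16 of 30 measured members rose and 3 fell (9 and 7 with centred arrays). Tmed3, a cargo receptor, had 8.66, 8.49, 8.88, 8.71 and 8.56 with EE2, against 7.74, 7.46, 7.77, 7.44 and 7.59 with oil, and rose by 1.06 (SE 0.09), while Arf1 differed by -0.00 (SE 0.07, adjusted p = 0.986). Of translation factors 15 of 38 measured members rose and 4 fell (4 and 15 with centred arrays), so their balance turned with centring. Eif4ebp3, a repressor of cap-dependent translation, rose by 1.61 (SE 0.21), and Eef2k, the kinase that slows elongation, fell by 1.07 (SE 0.13). Proteasome subunits turned likewise: 8 of 27 measured members rose and 2 fell (2 and 13 with centred arrays), 4 falling without EE2 array 17. Of transferases of N- and O-glycans 16 of 38 measured members rose and 7 fell (11 and 12 with centred arrays). St3gal5, which makes ganglioside GM3, rose by 1.17 (SE 0.14) and St6gal1, which sialylates plasma proteins, fell by 0.69 (SE 0.09).

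Metal and ion transport genes had several large members. Slc30a10, which exports manganese, had 4.58, 4.03, 4.61, 4.52 and 4.12 with EE2, against 6.33, 6.14, 5.92, 6.08 and 6.52 with oil, and fell by 1.83 (SE 0.16). Slc39a4, a zinc importer, had 6.89, 6.63, 6.72, 6.47 and 6.58 with EE2, against 8.35, 8.26, 8.39, 8.43 and 8.05 with oil, and fell by 1.64 (SE 0.13). Slc41a2, a magnesium transporter, fell by 2.41 (SE 0.28), and the zinc exporter Slc30a1 fell by 0.54 (SE 0.08). Of the zinc, copper and manganese list 8 of 28 measured members rose and 7 fell (5 and 14 with centred arrays, 6 and 9 after quantile normalization), with the copper gene Atp7a up by 0.45 (SE 0.07). Of ion pumps and channels 16 of 65 measured members rose and 21 fell (15 and 34 with centred arrays): Slc34a2, a phosphate carrier, rose by 2.37 (SE 0.15), the potassium channel Kcnj8 rose by 1.44 (SE 0.10), the epithelial sodium channel subunit Scnn1a fell by 1.61 (SE 0.14) and the sodium pump subunit Atp1b1 fell by 1.21 (SE 0.10). Of amino acid transporters 11 of 35 measured members rose and 10 fell (10 and 22 with centred arrays). Slc3a1, of cystine uptake, rose by 1.75 (SE 0.20), Slc7a7, of lysine and arginine export, rose by 1.47 (SE 0.09), Slc1a5, a glutamine carrier, rose by 1.42 (SE 0.14), and Slc38a3, a glutamine carrier of liver, fell by 0.77 (SE 0.08). Of sugar and monocarboxylate transporters 10 of 32 measured members rose and 5 fell (7 and 16 with centred arrays). Slc16a5 rose by 2.21 (SE 0.34), the dicarboxylate carriers Slc13a3 and Slc13a2 went by 0.94 (SE 0.14) and -1.27 (SE 0.18), and the liver glucose transporter Slc2a2 differed by -0.13 (SE 0.10, adjusted p = 0.283).

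Actin genes rose more often than they fell, with and without centring: 30 of 54 measured members rose and 9 fell (24 and 17 with centred arrays), and the median was 0.24. Myh14, a non-muscle myosin of epithelia, rose by 3.04 (SE 0.11), and Tmsb4x, which binds actin monomers, had 12.67, 12.86, 12.88, 12.72 and 12.60 with EE2, against 11.81, 11.94, 11.98, 11.91 and 11.81 with oil, and rose by 0.86 (SE 0.08). Coro1a and Capg, actin-binding proteins of leukocytes, rose by 2.09 (SE 0.14) and 1.35 (SE 0.15) in the same livers in which macrophage markers rose, and that part was not tested. Myo1e fell by 0.89 (SE 0.09) and Dstn differed by -0.02 (SE 0.05, adjusted p = 0.773). Of tubulins and microtubule proteins 14 of 42 measured members rose and 8 fell (10 and 19 with centred arrays, 12 and 5 after quantile normalization). The tubulins Tuba8 and Tubb2a rose by 1.84 (SE 0.21) and 1.52 (SE 0.21), and Tppp, a relative of Tppp3, fell by 1.48 (SE 0.19). Of cadherins, catenins, desmosome and gap junction genes 7 of 39 measured members rose and 14 fell (2 and 23 with centred arrays): Gjb2, a connexin of hepatocytes, fell by 0.88 (SE 0.06) and Cdh17, a cadherin of intestine, rose by 1.70 (SE 0.19). Of integrins, laminins and basement membrane genes 13 of 40 measured members rose and 7 fell (12 and 21 with centred arrays). Itga2, a collagen receptor, and Nid1, a basement membrane linker, rose by 2.03 (SE 0.17) and 2.16 (SE 0.10), Fn1 (fibronectin) rose by 0.68 (SE 0.07), and Fermt2, which activates integrins, had 7.80, 7.81, 7.79, 7.87 and 7.76 with EE2, against 9.01, 8.77, 8.98, 9.11 and 9.06 with oil, and fell by 1.18 (SE 0.07). Annexins, S100 proteins and calcium binders showed the same turn: 19 of 49 measured members rose and 6 fell (14 and 22 with centred arrays). S100a6 rose by 1.55 (SE 0.15) and Capn8, a calpain of stomach, rose by 2.34 (SE 0.14). Of tetraspanins and other membrane organisers 19 of 47 measured members rose and 10 fell (16 and 18 with centred arrays), with Tspan8 up by 3.58 (SE 0.10), Lgals3 (galectin-3) up by 2.58 (SE 0.18) and Lgals1 down 1.51-fold.

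**Figure D4:**
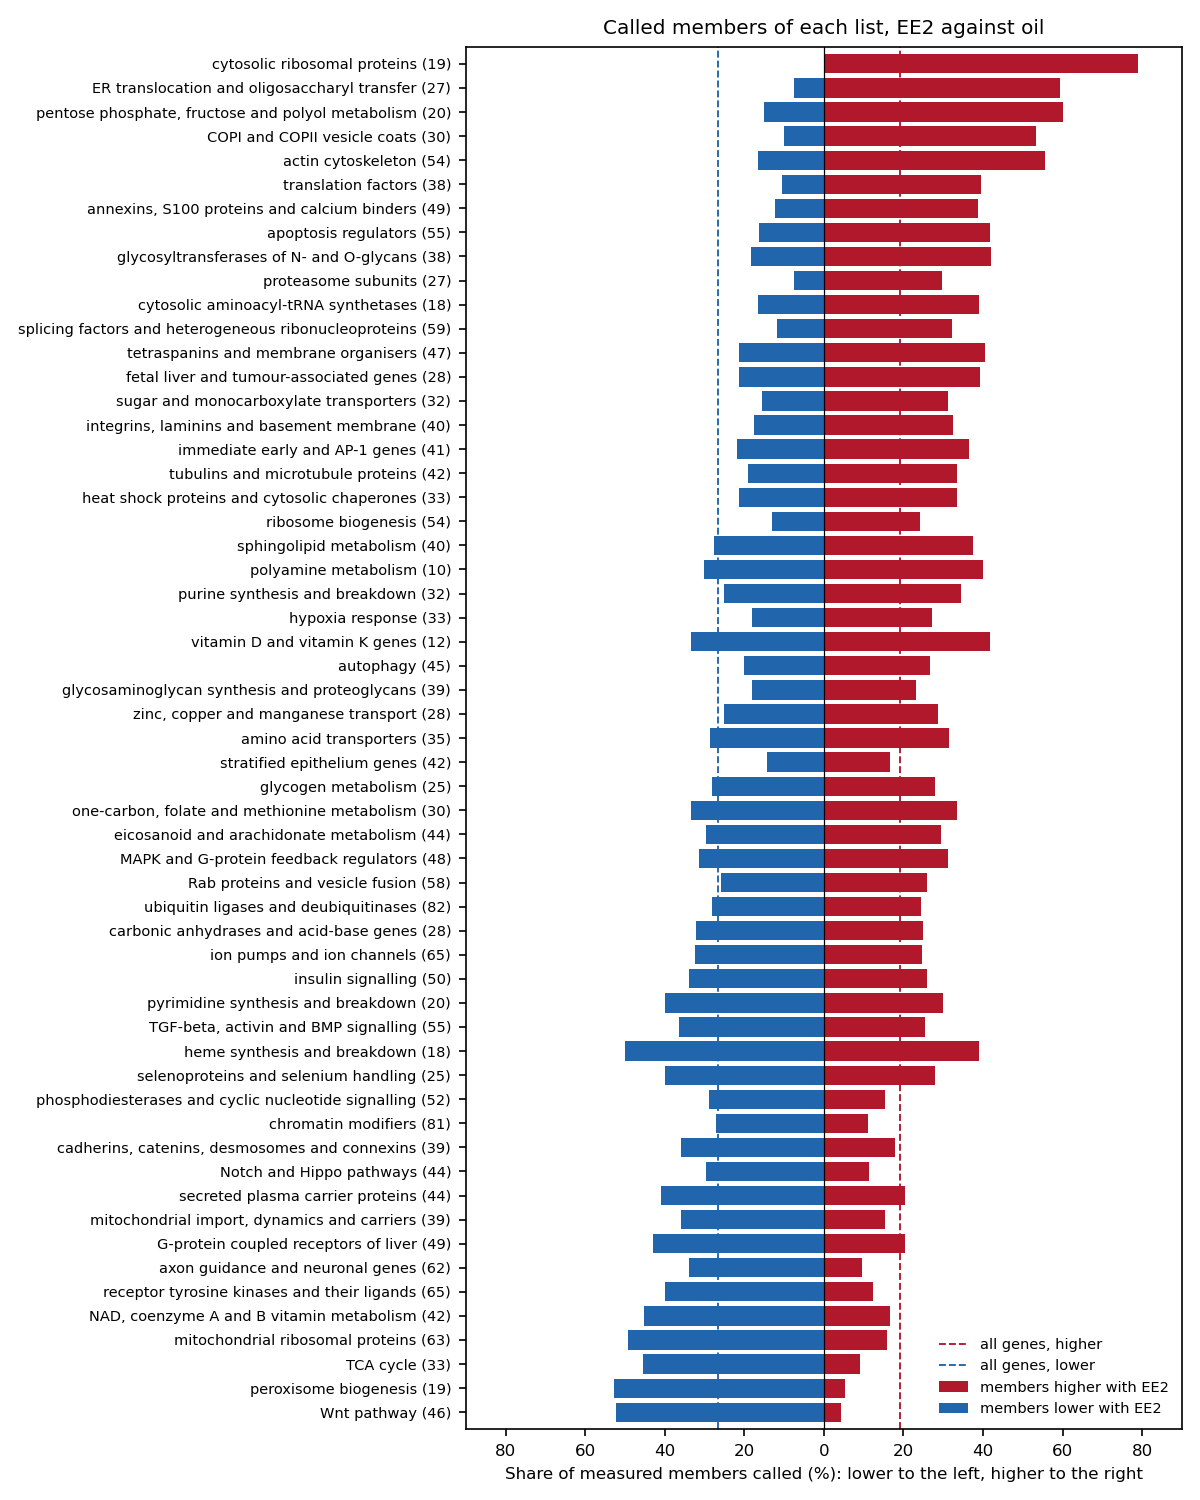
Share of the measured members of each of 57 function lists that were called lower (left, blue) and higher (right, red) with EE2, in percent, with the numbers of measured members in brackets and dashed lines for all genes (26.7% lower, 19.2% higher). Ribosomal, ER translocation, vesicle coat, pentose phosphate and actin lists reach furthest right, and peroxisome, Wnt, heme and mitochondrial ribosome lists furthest left.

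Genes of the Wnt path, which patterns the liver lobule around the central vein, fell more often than they rose: 2 of 46 measured members rose and 24 fell (1 and 35 with centred arrays), with a median of -0.20. Wnt2, a ligand of endothelial cells, fell by 1.12 (SE 0.18), Notum and Rnf43, which limit the signal and are themselves its targets, fell 2.51-fold and 2.22-fold, the R-spondin receptor Lgr4 fell by 0.61 (SE 0.07), and the ligand Wnt5b rose by 1.14 (SE 0.13). Of 17 endothelial markers 2 rose, 1 without oil array 6, 8 or 16 or EE2 array 15 or 17, and 8 fell (1 and 9 with centred arrays, 1 and 9 after quantile normalization), with a mean level per array of 6.35 to 6.68 with EE2 and 6.56 to 6.69 with oil. Their part in the Wnt2 fall was not tested. Of activin, BMP and TGF-beta genes 14 of 55 measured members rose and 20 fell (11 and 30 with centred arrays). Inhbc and Inhbe, the activin subunits of hepatocytes, had 7.08, 7.29, 7.10, 7.28 and 7.28 and 6.74, 7.20, 5.88, 6.90 and 6.60 with EE2, against 9.18, 8.64, 8.84, 8.93 and 8.56 and 7.94, 8.37, 7.49, 7.96 and 8.31 with oil. Both fell, by 1.63 (SE 0.09) and by 1.35 (SE 0.30), while Fst, which binds activins, rose by 1.34 (SE 0.29). Bmper, which binds BMPs outside the cell, had 7.21, 6.98, 6.91, 6.77 and 7.77 with EE2, against 3.16, 3.04, 3.00, 2.86 and 2.95 with oil, a rise of 4.13 (SE 0.14) that is a lower bound, Bmp7 rose by 1.75 (SE 0.09) and Bmp4 fell by 1.05 (SE 0.14).

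Growth factor genes fell more often than they rose as well: of receptor tyrosine kinases and their ligands 8 of 65 measured members rose and 26 fell (6 and 43 with centred arrays), with a median of -0.14. Fgf1, its receptor Fgfr2 and Pdgfa fell 3.09-fold, 2.16-fold and 2.29-fold. Nrg4, a ligand known from brown fat, had 8.64, 8.21, 7.97, 8.09 and 8.62 with EE2, against 5.72, 6.72, 6.11, 6.17 and 6.62 with oil, and rose by 2.04 (SE 0.23). Gas6, a vitamin K-dependent ligand, had 11.48, 11.22, 11.10, 10.82 and 11.39 with EE2, against 7.76, 7.81, 7.53, 7.57 and 7.58 with oil, and its receptor Axl rose too, by 1.41 (SE 0.11). The Gas6 difference was 3.55 (SE 0.12), 11.7-fold, adjusted p = 1.31e-15. Of G-protein coupled receptors 10 of 49 measured members rose and 21 fell (7 and 33 with centred arrays). The succinate receptor Sucnr1 fell by 2.09 (SE 0.16) and the nucleotide receptors P2ry13 and P2ry14 rose by 1.52 (SE 0.15) and 1.33 (SE 0.09). Of cyclic nucleotide genes 8 of 52 measured members rose and 15 fell (2 and 36 with centred arrays), with the adenylate cyclase Adcy7 up by 1.39 (SE 0.10) and Adcy6 down 1.87-fold. Of Notch and Hippo genes 5 of 44 measured members rose and 13 fell (5 and 26 with centred arrays). The Hippo target Ccn2 rose by 1.92 (SE 0.32) and Hes6 fell by 1.35 (SE 0.07). Of axon guidance and neuronal genes 6 of 62 measured members rose and 21 fell (5 and 51 with centred arrays, 6 and 12 after quantile normalization). The semaphorin receptors Nrp2 and Nrp1 moved apart, by 1.41 (SE 0.08) and -0.70 (SE 0.10).

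Stress and cell death genes held some large rises. Ddit4, which restrains mTOR under stress and low oxygen, had 8.94, 8.98, 9.21, 8.40 and 9.47 with EE2, against 5.59, 5.54, 5.09, 5.17 and 5.11 with oil, and rose by 3.70 (SE 0.17). Of the hypoxia list 9 of 33 measured members rose and 6 fell (7 and 14 with centred arrays, 9 and 9 after quantile normalization), and Egln3 and Vegfa, both raised by low oxygen in other settings, fell 1.69-fold and 1.29-fold. Of immediate early genes 15 of 41 measured members rose and 9 fell (10 and 14 with centred arrays), the falls numbering 4 without EE2 array 18 and 5 without EE2 array 13 or oil array 6. Klf6, Myc and Ier3 rose by 1.87 (SE 0.13), 1.45 (SE 0.25) and 1.38 (SE 0.14), and Maff fell by 1.30 (SE 0.15). Of apoptosis regulators 23 of 55 measured members rose and 9 fell (16 and 19 with centred arrays). Pmaip1, a BH3-only activator, rose by 2.33 (SE 0.13) and Casp12, a caspase at the ER, rose by 2.38 (SE 0.18), while Cideb, of lipoprotein assembly, fell by 0.55 (SE 0.05), Xiap fell by 0.29 (SE 0.06) and Cflar differed by -0.00 (SE 0.06, adjusted p = 0.992). Of selenoprotein genes 7 of 25 measured members rose and 10 fell (5 and 16 with centred arrays). Gpx3, the secreted glutathione peroxidase, had 9.37, 8.71, 8.34, 8.48 and 10.12 with EE2, against 5.50, 5.13, 5.29, 5.28 and 5.20 with oil, and rose by 3.72 (SE 0.23), and the intestinal Gpx2 rose by 1.96 (SE 0.23). Dio1, which activates thyroid hormone, fell by 1.10 (SE 0.20), and Gpx1 differed by -0.10 (SE 0.04, adjusted p = 0.0525). Nqo1, a quinone reductase, rose by 2.29 (SE 0.17), and Cbr3, a carbonyl reductase, rose by 3.18 (SE 0.13).

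Lists of gene control held smaller changes. Of chromatin modifiers 9 of 81 measured members rose and 22 fell (6 and 46 with centred arrays), with Tet2, which oxidises methylcytosine, up by 1.43 (SE 0.16) and the acetyltransferase Kat2b down 1.67-fold. Of ubiquitin ligases and deubiquitinases 20 of 82 measured members rose and 23 fell (11 and 42 with centred arrays, 13 and 29 after quantile normalization). Trim2 rose by 1.82 (SE 0.05) and Rnf186 fell by 1.10 (SE 0.23). Of splicing factors 19 of 59 measured members rose and 7 fell (11 and 23 with centred arrays), with Ptbp2 down 2.24-fold and Ptbp1 differing by 0.01 (adjusted p = 0.9). Of ribosome biogenesis genes 13 of 54 measured members rose and 7 fell (9 and 21 with centred arrays, 8 and 14 after quantile normalization), and of autophagy genes 12 of 45 measured members rose and 9 fell (9 and 24 with centred arrays, 11 and 12 after quantile normalization), among which Map1lc3b rose by 0.78 (SE 0.07) and Map1lc3a fell by 0.40 (SE 0.06). Of Rab and fusion proteins 15 of 58 measured members rose and 15 fell (10 and 28 with centred arrays, 16 and 12 after quantile normalization), the falls numbering 7 without oil array 5, 8 without oil array 6 or EE2 array 9 and 9 without oil array 2. Rab3d, of secretory granules, and Rab4a, of recycling endosomes, rose by 1.79 (SE 0.11) and 1.54 (SE 0.09). Of heat shock proteins and chaperones 11 of 33 measured members rose and 7 fell (6 and 14 with centred arrays), 4 falling without oil array 2 or 5 or EE2 array 15. Of aminoacyl-tRNA synthetases 7 of 18 measured members rose and 3 fell (6 and 7 with centred arrays), and of polyamine genes 4 of 10 measured members rose and 3 fell (3 and 4 with centred arrays). Among genes of glycosaminoglycans 9 of 39 measured members rose and 7 fell (5 and 23 with centred arrays, 5 and 7 after quantile normalization), 4 falling without EE2 array 17, among those of eicosanoids 13 of 44 measured members rose and 13 fell (12 and 24 with centred arrays, 14 and 12 after quantile normalization), and among those of vitamins D and K 5 of 12 measured members rose and 4 fell (4 and 7 with centred arrays).

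Plasma carrier genes fell more often than they rose, as bright genes did in general. Fetal genes rose more often than they fell, though not with centred arrays. Of secreted carrier proteins 9 of 44 measured members rose and 18 fell (7 and 28 with centred arrays). Their mean level per oil array was 11.03 to 11.12. Of all 889 genes over 10 with oil 196 rose and 430 fell, so this balance is not particular to the carriers. Serpina6 and Serpina7, the binding globulins of corticosteroids and thyroid hormone, fell 2.42-fold and 2.71-fold. Serpina7 had 6.57, 8.51, 6.32, 7.60 and 7.43 with EE2, against 8.47, 8.96, 9.02, 8.42 and 8.76 with oil, and EE2 array 13 stood within the oil range. Afp, the fetal albumin, had 6.89, 6.95, 6.21, 6.82 and 6.89 with EE2, against 3.62, 3.56, 3.57, 3.95 and 3.78 with oil, and rose by 3.06 (SE 0.15). Zbtb20 and Zhx2, known as repressors of Afp in adult liver, fell 1.50-fold and 1.27-fold, and their part in the Afp rise was not tested. Of the fetal and tumour-associated list 11 of 28 measured members rose and 6 fell (11 and 15 with centred arrays). At least 2-fold, 7 rose and 0 fell, and the differences ran from -0.58 to 5.09. Fgl1 and Lrg1, secreted proteins of the liver, rose by 1.30 (SE 0.20) and 0.96 (SE 0.16). Tfpi2, a protease inhibitor outside the fetal list, fell by 0.99 (SE 0.08). Among the 200 genes with the brightest signals with oil, all at 11.8 or more, 38 rose and 108 fell, and 0 rose and 10 fell at least 2-fold. Of these Hao1, the glycolate oxidase of peroxisomes, fell by 1.28 (SE 0.06), Aox3 fell by 1.57 and Apoa5 rose by 0.52 (SE 0.06), while Apoa2 and Azgp1 differed by 0.00 (SE 0.04, adjusted p = 0.951) and by 0.00 (SE 0.04, adjusted p = 0.956).

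The 5 EE2 arrays differed among themselves little more than the oil arrays, since the median SD of all genes was 0.114 with EE2 and 0.113 with oil. An SD over 1 was seen in 8 genes with EE2 and in 12 with oil, so a wide spread was not particular to EE2. A few genes spread widely with EE2 and closely with oil. Tppp3 had 8.40, 7.06, 6.66, 6.51 and 8.38 on EE2 arrays, against 3.32, 3.37, 3.31, 3.23 and 3.25 on oil arrays, so EE2 arrays 9 and 18 were highest, the same 2 arrays on which Car3 was lowest. Gpx3, Ovgp1 and Lmod3 were also highest on EE2 arrays 9 and 18. Slc25a36 had 6.49, 7.19, 5.19, 6.00 and 7.44 on EE2 arrays and 2.85, 3.18, 3.00, 2.82 and 3.27 on oil arrays, with array 15 lowest. Igha, an immunoglobulin chain of plasma cells, had 7.24, 5.82, 4.89, 6.05 and 5.92 on EE2 arrays, against 4.80, 5.11, 4.43, 4.77 and 4.92 on oil arrays, and Wfdc12 had 7.11, 6.24, 6.27, 4.79 and 6.03 on EE2 arrays, against 4.04, 3.88, 4.14, 3.93 and 3.44 on oil arrays. Both were highest on EE2 array 9. These patterns over arrays are descriptions, as the genes were picked for a wide spread with EE2 and an SD under 0.3 with oil.

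**Figure D5:**
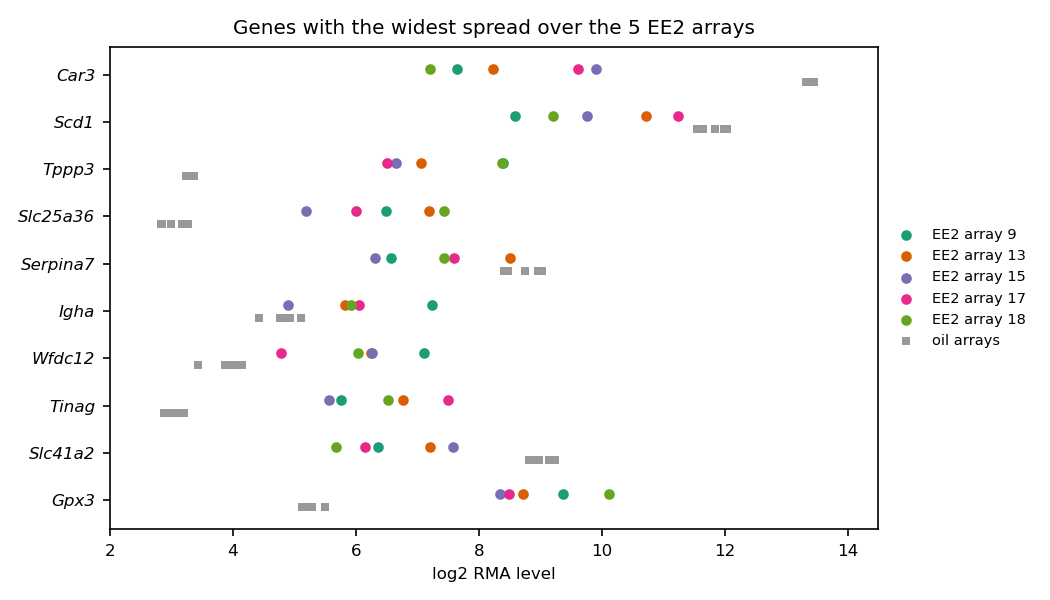
Level (horizontal axis, log2 RMA) of the 10 genes with the largest SD over the EE2 arrays among genes with an oil SD under 0.3 and an EE2 mean over 5, with EE2 arrays as coloured circles above the oil arrays as grey squares in each row. Car3 is lowest and Tppp3 and Gpx3 are highest on EE2 arrays 9 and 18. The oil arrays of each gene lie close together because the choice required it.

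The response to EE2 was set against that to CPZ, the other cholestatic drug of the study, by a contrast of the 2 responses in the same model. They share no vehicle arrays. With CPZ 73 genes rose and 58 fell, 0.796% of those tested, and the 2 responses differed for 31.6% of genes. Of the 818 genes that changed at least 2-fold with EE2, 799 differed in response between the compounds. These genes were chosen by their EE2 change, which is a term of that contrast, and few genes moved with CPZ. A high count was thus largely set by the choice and is a description only. Of those 818, 23 were also called with CPZ, which is 2.81% of the EE2 genes and 17.6% of the CPZ genes, and 22 of the 23 went the same way. Krt4 differed by 7.03 with EE2 and -0.09 with CPZ, a difference between the responses of 7.12 (SE 0.10, adjusted p = 1.26e-21). Fabp4 differed by 5.00 with EE2 and 0.04 with CPZ (difference of responses 4.96, adjusted p = 3.68e-16), and Car3 by -4.87 with EE2 and -0.04 with CPZ (difference of responses -4.83, adjusted p = 1.64e-07). Alas1 differed by 1.01 with EE2 and -1.07 with CPZ, where it did not pass the test (adjusted p = 0.175), and the responses differed by 2.08 (SE 0.49, adjusted p = 0.0029).

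A few genes were called with both compounds. Hectd2os fell with CPZ too, standing at 6.65 ± 0.29 with CPZ and 7.39 ± 0.31 with PBS (adjusted p = 0.0166), less than with EE2 by the test of the difference (adjusted p = 2.82e-11). Nrep stood at 7.49 ± 0.54 with CPZ and 8.70 ± 0.25 with PBS (adjusted p = 0.0216), and Tmed3 at 8.05 ± 0.20 with CPZ and 7.65 ± 0.06 with PBS (adjusted p = 0.0441). Both responses were smaller than those to EE2 (adjusted p = 0.000615 and 0.000447). Gys2, the glycogen synthase of liver, differed by -0.45 with EE2 and -0.47 with CPZ, and the difference between these responses did not pass the test (adjusted p = 0.924). Selenoi, of phospholipid synthesis, and the endothelial receptor Tek went opposite ways: Selenoi by -0.52 with EE2 and 0.29 with CPZ, Tek by -0.68 with EE2 and 0.43 with CPZ, with differences between the responses of -0.82 (adjusted p = 1.72e-07) and -1.11 (adjusted p = 2.37e-06). Fst, which binds activins, differed by 1.15 with CPZ (adjusted p = 0.0647), and the difference from its rise with EE2 did not pass the test (adjusted p = 0.747).

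The cell type markers moved with EE2 as follows. Besides the macrophage markers, of 15 lymphocyte markers 8 rose and 1 fell (8 and 4 with centred arrays, 8 and 0 after quantile normalization), 0 falling without oil array 6 or EE2 array 17. Of 13 neutrophil and precursor markers 6 rose and 0 fell (5 and 2 with centred arrays). The platelet chemokines Pf4 and Ppbp rose by 2.05 (SE 0.16) and 1.12 (SE 0.18), while Gp9 and Itga2b, which define platelets, differed by -0.01 (SE 0.09, adjusted p = 0.959) and by -0.22 (SE 0.10, adjusted p = 0.0732). Of 10 bile duct markers 0 rose and 5 fell (0 and 8 with centred arrays, 0 and 3 after quantile normalization), 3 falling without EE2 array 18. The lowest difference among them was -2.68, and 1 marker fell at least 2-fold. Krt19 stood at 3.60 ± 0.10 with EE2 and 3.73 ± 0.17 with oil and Krt7 at 3.84 ± 0.19 with EE2 and 3.66 ± 0.08 with oil, and neither ductal keratin passed the test. Of 15 stellate cell and fibroblast markers 5 rose and 4 fell (4 and 6 with centred arrays), with Col1a1 at 3.84 ± 0.14 with EE2 and 3.87 ± 0.22 with oil. Of 10 pancreas markers 1 rose and 3 fell (1 and 9 with centred arrays). Their differences ran from -1.55 to 0.85, and 1 marker fell at least 2-fold. Of 10 mesothelium markers 0 rose and 1 fell (0 and 7 with centred arrays), 2 falling without oil array 8 or EE2 array 18. Of 11 muscle markers 2 rose and 2 fell (2 and 6 with centred arrays, 2 and 1 after quantile normalization), the falls numbering 0 or 1 when any single array other than EE2 array 17 was left out. The pancreatic zymogen genes Ctrb1 and Prss2 and the mesothelial Msln stood near the lower quartile in both groups, at 3.32 ± 0.09, 2.99 ± 0.07 and 3.18 ± 0.13 with EE2 and at 3.34 ± 0.10, 3.08 ± 0.06 and 3.16 ± 0.16 with oil.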

How the data were processed

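Biotin-labelled liver RNA was prepared with Affymetrix's 3' IVT Express kit, as the labels' protocols state. The authors summarised probe signals by RMA, per the submitters' processing notes, and deposited log2 levels between 1.91 and 14.2 for 17306 probe sets on 20 arrays. The probe definition's version, the genome build and any filter were not given in the sources used here. GEO's platform table gave 1 symbol for 16464 probe sets, several for 0 and none for 842, which stayed out. Values were used as deposited, with no filter; array means were 5.28 to 5.31, and 0 columns were left unused.

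The 20 arrays entered a single linear model with a mean for each of 4 groups and no covariate (lmFit, contrasts.fit and eBayes of limma 3.58.1 in R 4.3.3; 16 residual and 4.25 prior degrees of freedom). P-values are two-sided, adjusted by Benjamini-Hochberg over all genes and called under 0.05. Members, the 57 function lists (2261 genes measured of 2590 written) and 13 marker lists were chosen from general knowledge with earlier results of these data known, so lists are described by counts and medians with no test. The rule for named genes took, per list, up to 3 largest rises and falls among called genes whose groups do not overlap and up to 2 members with the smallest difference at a level over 8. It added the 30 largest rises and falls and the 15 smallest p each way outside the lists set aside, 18 of the 200 brightest genes, the 10 with the largest EE2 SD among genes with an oil SD under 0.3 and an EE2 mean over 5, and all markers, and of these the text names genes of known role. The limma test was tested on simulated data. Promoter sequences come from RefSeq (GRCm38.p6). Python 3.11.15, pandas 2.3.3 and matplotlib 3.10.9 made tables and figures. Quantile normalization, median centring, a filter on low levels, other variance models, array weights, fewer arrays and leaving out each array were tried as alternatives.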

Additional observations from a re-analysis of the deposited data

Results flagged for a closer look

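Of 492 groups of 5 arrays looked at, which are the EE2 and the oil group of each gene named above, 27 held an array at one end whose gap to its nearest neighbour, divided by the range of the group, was above Dixon's critical value of 0.71. Chance flags about 1 in 20 groups, and no array was removed. On EE2 array 15 Afp stood at 6.21, against 6.82 to 6.95, and Gna12 stood at 3.47, against 3.82 to 3.92 on the other EE2 arrays. On oil array 5 Aox3 stood at 12.11, against 12.32 to 12.36 on the other oil arrays. On oil array 5 Arg2 stood at 2.82, against 2.67 to 2.69, Atp1b1 stood at 9.34, against 8.73 to 8.90, Ier3 stood at 4.62, against 4.34 to 4.42, and Map1lc3b stood at 10.28, against 10.06 to 10.10 on the other oil arrays. On EE2 array 17 Atp6v1h stood at 9.68, against 9.29 to 9.39 on the other EE2 arrays. On oil array 16 Bmp4 stood at 5.88, against 5.39 to 5.42 on the other oil arrays. On EE2 array 13 Ccn2 stood at 7.47, against 8.09 to 8.33, and Galt stood at 8.73, against 8.91 to 8.97 on the other EE2 arrays. On oil array 2 Fabp4 stood at 7.81, against 7.61 to 7.66, and Tfrc stood at 3.33, against 3.07 to 3.14 on the other oil arrays. On oil array 8 Gp9 stood at 3.02, against 3.36 to 3.42 on the other oil arrays. On oil array 2 Hectd2os stood at 6.88, against 7.19 to 7.29, and Hlcs stood at 4.70, against 5.10 to 5.23 on the other oil arrays. On EE2 array 9 Hmox1 stood at 6.96, against 6.31 to 6.50, and Nt5e stood at 7.68, against 5.94 to 6.35 on the other EE2 arrays. On oil array 16 Krt4 stood at 3.20, against 3.32 to 3.36, and Ly6d stood at 3.43, against 3.93 to 4.11 on the other oil arrays. On EE2 array 17 Me2 stood at 4.66, against 4.83 to 4.90 on the other EE2 arrays. On oil array 8 Ms4a1 stood at 4.12, against 3.74 to 3.82, and Rgs7 stood at 3.55, against 2.99 to 3.08 on the other oil arrays. On oil array 6 Perp stood at 10.12, against 10.30 to 10.35 on the other oil arrays. On EE2 array 18 Slc13a3 stood at 7.38, against 7.74 to 7.88, and Tek stood at 5.79, against 6.13 to 6.24 on the other EE2 arrays. On EE2 array 9 Slc4a2 stood at 5.88, against 6.22 to 6.34 on the other EE2 arrays. Except for Atp6v1h, Gp9, Perp and Tfrc, which were not called, these are genes whose difference between EE2 and oil passed the test, and Nt5e on EE2 array 9 stood above a group that was itself higher than oil.

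Signal was also present in data outside the comparison. Of 842 probe sets without a gene symbol, which were not tested, 32 had all 5 EE2 arrays above all 5 oil arrays with a mean difference of at least 1 on the log2 scale, and 12 had all EE2 arrays below by as much.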

How the results depend on the processing

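No paired analysis was possible because the 4 groups have no sample number in common. With each array centred on its median 11846 genes were called, 2062 higher and 9784 lower, and 17.4% of the calls were higher, against 41.9% with the values as deposited. Of the 7560 genes called, 6456 were called there too in the same direction. After quantile normalization, which called 7015 genes (41.5% higher), 5952 kept both call and direction. Most of those not counted need not have reversed, since a lost call also removes a gene from these counts. The other settings gave 6516 calls without the 30% of genes with the lowest mean, 7538 with an intensity trend and robust prior, 7711 with array weights, 7352 with the EE2 and oil arrays alone in the model, and 6885 to 7246 when each of the 10 arrays was left out in turn. Of 246 genes named in the text, 217 of them called, 17 had another call under some setting. Centring turned Apoa2 to -0.16, Azgp1 to -0.16 and Mthfd1 to -0.15, each past the threshold, and brought 11 further genes past it, while none lost its call there. Quantile normalization took the call from Epb42 and Lep, and leaving out oil array 2 or 5 took it from Alas1. Of 140 list counts 77 moved by over 1.5 times with centring, 14 with quantile normalization, 7 without the lowest genes, at most 1 with the other models and 2 to 6 when 1 array was left out. Centring follows from the higher medians of the EE2 arrays by construction, and whether those medians are biological or technical was not tested. Genes near the lower quartile give only bounds, and 5 arrays a group limit the precision.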
